A study of Mus musculus with 15 samples.

Results

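Dlk1, its paralogue Dlk2, the receptors Notch1, Notch2 and Notch3, the ligand Jag1, the nuclear effector Rbpj and the target genes Hes1, Hey1 and Heyl were followed in 3T3-L1 cells, a mouse preadipocyte line, on day 2 of adipocyte differentiation. These 10 genes were taken by symbol from the 26301 gene rows of the count files, as DLK proteins and Notch pathway genes, and they were chosen with results of the same libraries known. RNA-seq counts covered 15 libraries in 5 groups of 3 replicates, and all cells received insulin, dexamethasone and IBMX. In the knockdown set, sh-Empty cells carried the control retroviral vector and JMJD1A-KD cells (sh-Jmjd1a) carried a hairpin against Jmjd1a. In the rescue set, all cells carried the hairpin against Jmjd1a and also expressed LacZ as a control, wild-type JMJD1A (JMJD1A(WT)) or the mutant JMJD1A(H1122A), which is defective at its iron-binding site. Both JMJD1A constructs carried silent changes against the hairpin. The cells were drug-selected pools of infected cells, and the labels do not say that replicates came from separate infections or cultures, so p-values measure only the spread between these libraries, which may be technical.

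DLK1, also known as preadipocyte factor 1, is a membrane protein with EGF repeats related to the Notch ligands, and its shed ectodomain is known to restrain adipogenesis and to raise SOX9. Canonical Notch signalling starts when a ligand such as JAG1 on one cell binds a receptor on its neighbour. ADAM proteases and gamma-secretase then release the intracellular domain, which joins the DNA-binding protein RBPJ and MAML coactivators to switch on genes of the HES and HEY families. DLK1 lacks the domain by which canonical ligands activate Notch and is often described as a non-canonical inhibitor of it. JMJD1A, encoded by Kdm3a, removes methyl groups from lysine 9 of histone H3 and needs iron at its active site.

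Across the libraries, total counts were 11437058 to 25523148 with a median of 12916162, and JMJD1A(WT) replicate 3 was the deepest. Levels are given as CPM, the counts of a gene relative to the library total after TMM scaling over all 15 libraries, and levels of different genes are compared only as CPM per kb of annotated exons. Kdm3a was lower in all JMJD1A-KD libraries, at 128, 127 and 135 CPM, than in the sh-Empty libraries, at 169, 172 and 182 CPM, a log2 fold change of -0.42 ± 0.05 (SE; edgeR adjusted p = 2.91e-08). It stood at 117 to 123 CPM with LacZ, 1647 to 1779 CPM with JMJD1A(WT) and 2115 to 2291 CPM with JMJD1A(H1122A), where reads of the introduced and the endogenous transcript were counted together. The summed level of 10 adipocyte markers, most of it from Lpl, was 5255 to 5350 CPM in sh-Empty cells, 2671 to 2859.5 CPM in JMJD1A-KD cells, 3486 to 3574 CPM with LacZ, 3961 to 4335 CPM with JMJD1A(WT) and 2678 to 2787 CPM with JMJD1A(H1122A). The other 9 markers had their lowest mean with JMJD1A(H1122A), and Cd36 was lower in sh-Empty cells (52.3 CPM) than with LacZ (67.1 CPM) or JMJD1A(WT) (93.9 CPM). Summed levels of 10 preadipocyte and fibroblast markers, most of it from Col1a1, Col1a2 and Col3a1, were 11936 to 12064 CPM in sh-Empty cells, 20285 to 21919 CPM in JMJD1A-KD cells and 24935 to 26772 CPM across the 9 libraries of the rescue set. Among them, Dcn (-0.35) and Ly6a (-0.41) were called lower on the log2 scale in JMJD1A-KD cells, and Pdgfra (0.07) was not called. In JMJD1A(WT) against LacZ, Ly6a (1.24), Pdgfrb (0.18) and Col3a1 (0.12) were called higher and Dcn (-0.19) and Vim (-0.14) lower. In JMJD1A(H1122A) against JMJD1A(WT), Ly6a (-1.54) and Col3a1 (-0.17) were called lower and 4 markers higher. Against LacZ, 4 were called higher and 0 lower with JMJD1A(H1122A). Over all genes, 9.5%, 23.8% and 9.24% were called in these comparisons. The 5 endothelial markers summed to at most 1.04 CPM and the 5 macrophage and leukocyte markers to at most 4.0 CPM in any library. Of 5 muscle markers, Des stood at 14.2 to 16.6 CPM with JMJD1A(WT) and the list summed to at most 5.14 CPM elsewhere. The other 4 had under 10 counts in every library, with Myod1 and Myog at 0, and their part in the results was not tested. In these bulk libraries, fewer cells of one type and less RNA per cell cannot be told apart.

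The sequences before the start sites of Dlk1, Notch1 and Notch2 are shown, the 3 tested members whose JMJD1A-KD and sh-Empty libraries did not overlap. Of all 12272 genes tested there, 6498 also had no overlap, so this trait is not particular to these members. Dlk1 and Notch1 had lower levels after knockdown and the reverse on adding JMJD1A(WT), and Notch2 had higher levels after knockdown. The RefSeq promoter table of GRCm38.p6 matched 7 of the 10 genes (not Hes1, Hey1 or Heyl), in 9 windows, and the 250 bases before the start are printed 5′ to 3′ on the strand of the gene, with CpG dinucleotides in capitals.
Dlk1, chr12:109452573-109452822, plus strand: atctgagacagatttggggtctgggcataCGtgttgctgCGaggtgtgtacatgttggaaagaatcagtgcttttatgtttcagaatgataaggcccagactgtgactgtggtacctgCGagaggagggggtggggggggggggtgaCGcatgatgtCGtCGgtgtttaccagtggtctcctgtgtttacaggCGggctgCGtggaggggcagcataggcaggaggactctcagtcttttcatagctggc
Notch1, chr2:26503823-26504072, minus strand: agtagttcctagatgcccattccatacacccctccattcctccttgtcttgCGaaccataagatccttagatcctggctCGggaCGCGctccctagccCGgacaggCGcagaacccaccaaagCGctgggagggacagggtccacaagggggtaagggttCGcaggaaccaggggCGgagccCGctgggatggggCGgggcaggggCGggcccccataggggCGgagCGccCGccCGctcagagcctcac
Notch2, chr3:98013288-98013537, plus strand: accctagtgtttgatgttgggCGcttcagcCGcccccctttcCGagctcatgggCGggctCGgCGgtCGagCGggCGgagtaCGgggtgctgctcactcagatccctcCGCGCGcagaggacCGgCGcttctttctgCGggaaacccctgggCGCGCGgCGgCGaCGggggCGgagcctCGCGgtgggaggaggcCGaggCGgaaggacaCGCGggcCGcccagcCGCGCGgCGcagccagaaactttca
The Dlk1 window held 8 CpG dinucleotides, a number that 59.7% of all 32851 windows did not exceed. Notch1 had 16 and Notch2 had 34, a number that 97.0% of all windows did not exceed, beside a median of 6 over all windows. The core of the RBPJ motif, TGGGAA on either strand (TTCCCA when read on the other), was absent from these 3 windows. It was found in 21.6% of all windows and in both windows of Rbpj, which overlap and share 1 match. The first window of Rbpj is shown with its matches in capitals, which begin at -149 and -65 relative to the start.
Rbpj, chr5:53590096-53590345, plus strand: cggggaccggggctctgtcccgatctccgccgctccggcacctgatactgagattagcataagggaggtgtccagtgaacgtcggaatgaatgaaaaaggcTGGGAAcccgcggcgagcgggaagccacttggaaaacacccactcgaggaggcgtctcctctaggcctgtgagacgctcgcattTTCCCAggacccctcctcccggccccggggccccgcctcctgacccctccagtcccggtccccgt
A match in these letters is a description of the sequence and not a measured binding site.

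Of the 10 genes, 7 had enough counts to be tested and 3 did not. Dlk2, a homologue of Dlk1 that also acts on adipogenesis, had 0 to 6 counts per library, and Hey1 had 0 to 9. Heyl had 1 count in sh-Empty replicate 2 and 0 in the other libraries. A count of 0 allows up to 3 counts, or 0.118 to 0.262 CPM depending on the library, so changes of these genes were not detectable at this depth. A fit without the filter on low counts called none of the 3 in any comparison in which it could be fitted, and their unadjusted p-values in that fit were 0.183 or more.

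On the scale of CPM per kb, Dlk1 led the 10 genes in every group. Its mean level was 149 CPM per kb in sh-Empty cells and 68.7 CPM per kb with JMJD1A(H1122A), the 2 extremes. Among 20268 genes ranked per kb in each library, Dlk1 stood between places 256 and 270 in sh-Empty cells, 438 and 470 in JMJD1A-KD cells, 384 and 410 with LacZ, 276 and 291 with JMJD1A(WT), and 643 and 692 with JMJD1A(H1122A). Jag1, Hes1 and Notch2 followed at 15.1 to 22.0 CPM per kb in the group means, then Notch1 at 8.49 to 11.5 CPM per kb. Rbpj stood at 3.87 to 4.04 CPM per kb and Notch3 at 0.406 to 0.679 CPM per kb. Dlk1 stayed first when the longest transcript replaced the exon union as the length, whereas Hes1 then passed Jag1 in 4 groups and Notch1 passed Notch2 with JMJD1A(WT).

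**Figure D1:**
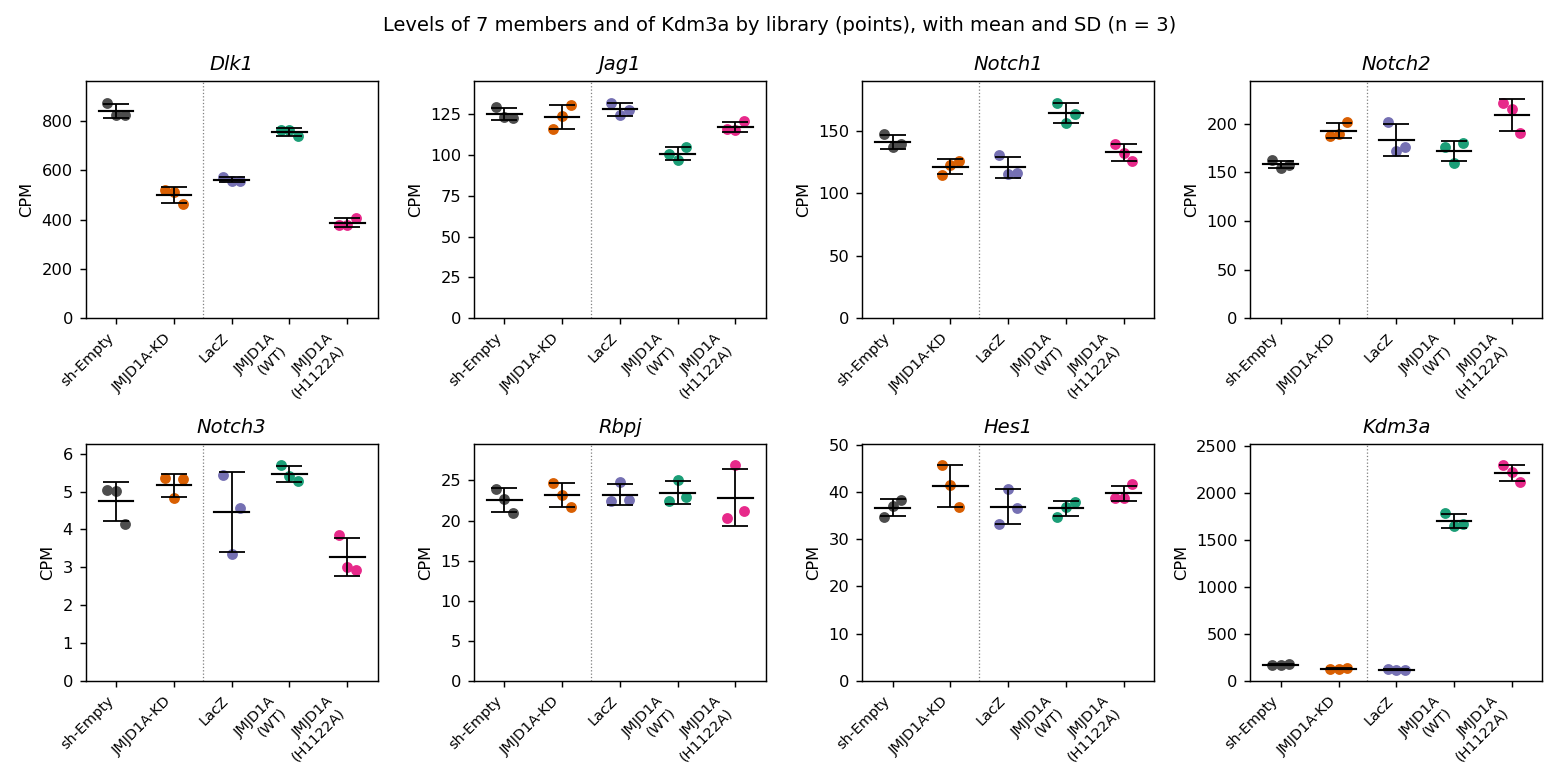
Level in CPM (linear axes from 0) of the 7 members tested and of Kdm3a in each library (points), with the group mean and SD (n = 3); the dotted line parts the knockdown set from the rescue set. Dlk1 ran from 377 CPM in a JMJD1A(H1122A) library to 875 CPM in a sh-Empty library, while Rbpj stayed between 20.4 and 26.9 CPM.

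Dlk1 transcripts were fewer after knockdown, more abundant when JMJD1A(WT) rather than LacZ was expressed, and fewest of all with JMJD1A(H1122A). Dlk1 lies on chromosome 12 (110691033 to 110701546, plus strand, mm9). The 3 sh-Empty libraries held 875, 825 and 826 CPM of Dlk1, and the 3 JMJD1A-KD libraries 522, 513 and 463 CPM. In the rescue set the LacZ libraries held 574, 555 and 556 CPM, the JMJD1A(WT) libraries 765, 764 and 738 CPM, and the JMJD1A(H1122A) libraries 377, 380.1 and 408 CPM. In order of level, the groups ran sh-Empty, JMJD1A(WT), LacZ, JMJD1A-KD and JMJD1A(H1122A), and no neighbouring pair of groups in that order overlapped. Knockdown and rescue libraries were placed in 1 order for description only, because set and group cannot be told apart between them.

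The fitted log2 fold change of Dlk1 was -0.76 ± 0.04 (SE) in JMJD1A-KD against sh-Empty cells, 0.43 ± 0.04 in JMJD1A(WT) against LacZ and -0.96 ± 0.04 in JMJD1A(H1122A) against JMJD1A(WT). These values carry no test, because Dlk1 is on a gene list of the study that was selected on these 3 comparisons. The remaining comparison, JMJD1A(H1122A) against LacZ, was not used for that list, although its libraries were. There Dlk1 fell by 0.53 ± 0.04 on the log2 scale (edgeR adjusted p = 5.87e-15), to 389 ± 17.2 CPM from 562 ± 10.8 CPM (SD, n = 3 each), and all JMJD1A(H1122A) libraries lay below all LacZ libraries. The 3 comparisons of the rescue set share libraries, and none of those libraries is in the knockdown set.

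The genes whose pattern was most like that of Dlk1 were Cebpa, Fabp4, Igfbp4, Dgat2 and Col18a1, with a Pearson r of log2 CPM of 0.996, 0.995, 0.985, 0.983 and 0.983 over the 15 libraries. The comparison ran over the 10107 genes whose mean reached 5 CPM. Fabp4, Dgat2 and Col18a1 are on the same selected list of the study as Dlk1. The paper also names Cebpa among the genes it selected by expression in the same comparisons, so a shared pattern of these genes follows in part from that selection. The libraries fall into 5 groups and share their scaling, and r is given as a description. Cebpa encodes a transcription factor of adipogenesis, and its mean level ran from 189.8 ± 6.88 CPM (SD, n = 3) in sh-Empty cells to 47.3 ± 4.50 CPM with JMJD1A(H1122A). Fabp4, a fatty acid carrier of adipocytes, ran from 553 ± 17.2 CPM to 89.4 ± 6.65 CPM in the same groups. The part of the adipocyte markers in the differences of Dlk1 was not tested.

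**Figure D2:**
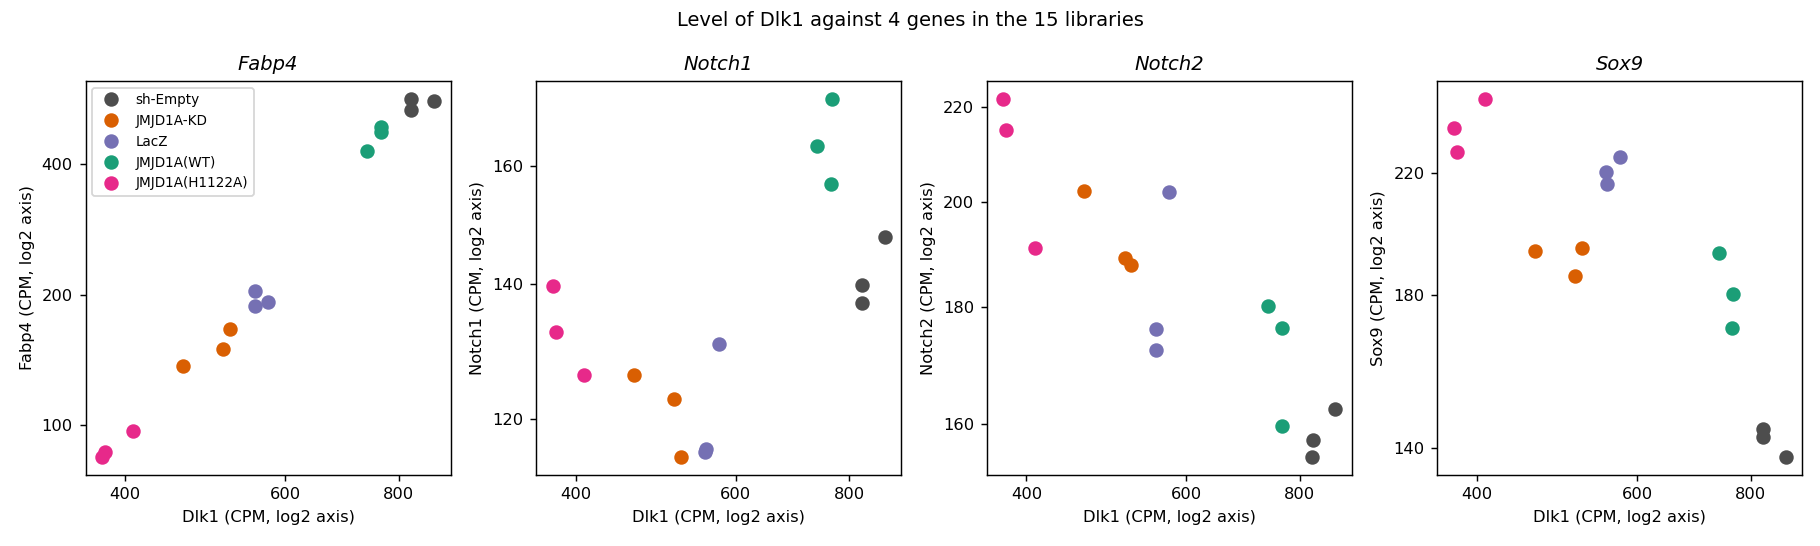
Level of Dlk1 against those of Fabp4, Notch1, Notch2 and Sox9 in the 15 libraries (CPM, log2 axes), coloured by group. Fabp4 climbed with Dlk1 through all 5 groups (r = 0.995), Notch2 descended (r = -0.88), and the Notch1 points are scattered (r = 0.55).

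Dlk1 is an imprinted gene, expressed from the paternal allele in a cluster that also holds Meg3, Rtl1, Rian, Mirg and Dio3. Of 7 genes of the cluster and beside it, Begain and Wdr25 passed the filter and the other 5 did not. Meg3 had 3 counts in LacZ replicate 2 and 0 elsewhere, and Dio3 had 0 in every library. Rtl1 had 0 to 13 counts, Rian 0 to 6 and Mirg 0 to 11 per library. Wdr25 stood at 7.04 to 8.44 CPM and Begain at 0.977 to 1.52 CPM in the group means, and neither was called in any of the 4 comparisons (edgeR adjusted p from 0.231 to 0.941, with none at an unadjusted p under 0.05, and none called by DESeq2). Over all genes, edgeR called 9.24% to 46.2% in these comparisons.

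Sox9, a transcription factor that secreted DLK1 is known to induce in preadipocytes, went the other way from Dlk1. Its level was 138, 143 and 145 CPM in sh-Empty cells and 195, 186 and 194 CPM in JMJD1A-KD cells. In the rescue set it was 226, 221 and 216 CPM with LacZ, 180.4, 170.5 and 193 CPM with JMJD1A(WT) and 237, 228 and 249 CPM with JMJD1A(H1122A). The groups did not overlap within either set. Sox9 was higher in JMJD1A-KD than in sh-Empty cells by 0.43 ± 0.05 on the log2 scale (edgeR adjusted p = 6.28e-09). In the rescue set JMJD1A(WT) lay below LacZ (log2 fold change -0.27 ± 0.04, adjusted p = 1.47e-05), and JMJD1A(H1122A) lay 0.38 ± 0.05 above JMJD1A(WT) (adjusted p = 4.10e-09). Against LacZ, the JMJD1A(H1122A) difference of 0.11 ± 0.04 was not called (adjusted p = 0.124).

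Among the other genes tied to DLK1 action, Fn1, whose product fibronectin binds DLK1, stood at 11243 CPM in JMJD1A-KD against 8634 CPM in sh-Empty cells (0.38 ± 0.03, adjusted p = 3.06e-11) and was not called in the rescue set (adjusted p from 0.150 to 0.953). Adam17, which sheds the DLK1 ectodomain and shares 97 exon bases with Iah1 on the other strand, was 0.18 ± 0.06 higher in JMJD1A-KD cells (adjusted p = 0.0127), a call that was lost without JMJD1A-KD replicate 3 (0.11, adjusted p = 0.0925). In JMJD1A(H1122A) against JMJD1A(WT), the kinase Mapk3 was higher by 0.20 ± 0.05 (adjusted p = 0.00431), a call lost without JMJD1A(H1122A) replicate 3 (0.16, adjusted p = 0.0531). Itgb1 and Map2k1 were called in none of the comparisons (adjusted p from 0.130 to 0.995). Of the 7 genes of this list, all tested, 3 were higher in JMJD1A-KD cells, 1 was lower in JMJD1A(WT) against LacZ and 3 were higher in JMJD1A(H1122A) against JMJD1A(WT), beside 46.2%, 9.5% and 23.8% of all genes called in either direction. Against LacZ, 0 were called with JMJD1A(H1122A) by edgeR or DESeq2, with 3 at an unadjusted p under 0.05, beside 9.24% of all genes called by edgeR.

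The Notch receptors differed in direction. Notch1 was lower after knockdown and highest with JMJD1A(WT), while Notch2 was higher after knockdown and highest with JMJD1A(H1122A). Notch1 lies on chromosome 2 (26313423 to 26372183, minus strand, mm9) and Notch2 on chromosome 3 (97817461 to 97954290, plus strand, mm9). Exons of Notch1 overlap those of 0610009E02Rik and Gm13568 on the other strand over 1389 bases, whose reads cannot be told apart because the strand setting of the counting is not stated.

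Notch1 stood at 148, 137 and 139.8 CPM in sh-Empty cells and at 115, 123 and 126 CPM in JMJD1A-KD cells, with no overlap. It stood at 131, 116 and 116 CPM with LacZ, 173, 157 and 164 CPM with JMJD1A(WT), and 139.6, 132 and 126 CPM with JMJD1A(H1122A). Libraries with JMJD1A(WT) lay above all others of both sets, and LacZ replicate 1 overlapped the JMJD1A(H1122A) libraries. In order of level the groups ran JMJD1A(WT), sh-Empty, JMJD1A(H1122A), JMJD1A-KD and LacZ, and every neighbouring pair after the first overlapped. The log2 fold changes were -0.22 ± 0.05 (SE) for JMJD1A-KD against sh-Empty, 0.45 ± 0.05 for JMJD1A(WT) against LacZ and -0.31 ± 0.05 for JMJD1A(H1122A) against JMJD1A(WT), given without a test since Notch1 is on the same selected list as Dlk1. Between JMJD1A(H1122A) and LacZ the difference of 0.14 ± 0.05 was not called (edgeR adjusted p = 0.0861), and it was called without LacZ replicate 1 (0.20, adjusted p = 0.0115).

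Notch2 stood at 162, 155 and 158 CPM in sh-Empty cells and at 188, 189 and 202 CPM in JMJD1A-KD cells. All JMJD1A-KD libraries lay above all sh-Empty libraries (0.29 ± 0.05, edgeR adjusted p = 9.46e-06). It stood at 202, 172 and 176 CPM with LacZ, 176, 159.7 and 180.04 CPM with JMJD1A(WT), and 222, 215 and 191 CPM with JMJD1A(H1122A). JMJD1A(H1122A) exceeded JMJD1A(WT) by 0.28 ± 0.07 (adjusted p = 0.0044), with no overlap. In order of level, from JMJD1A(H1122A) through JMJD1A-KD, LacZ and JMJD1A(WT) to sh-Empty, each group overlapped the next. The difference of JMJD1A(WT) from LacZ, -0.08 ± 0.07, was not called (adjusted p = 0.548). Between JMJD1A(H1122A) and LacZ the difference was 0.19 ± 0.07 (adjusted p = 0.0777). It was called without LacZ replicate 1 (0.27, adjusted p = 0.000369) or JMJD1A(H1122A) replicate 3 (0.25, adjusted p = 0.00545), and with DESeq2 (adjusted p = 0.0408).

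Notch3, on chromosome 17 (32257765 to 32303825, minus strand, mm9), had 34 to 135 counts per library. Its levels were 5.04, 5.03 and 4.15 CPM in sh-Empty cells and 5.37, 4.82 and 5.32 CPM in JMJD1A-KD cells, which overlapped. They were 5.45, 3.35 and 4.57 CPM with LacZ, 5.69, 5.42 and 5.27 CPM with JMJD1A(WT), and 3.84, 3.02 and 2.93 CPM with JMJD1A(H1122A). In JMJD1A(H1122A) against JMJD1A(WT), Notch3 was lower (log2 fold change -0.73 ± 0.21, edgeR adjusted p = 0.0087), and this call was lost without JMJD1A(H1122A) replicate 2 (-0.67, adjusted p = 0.0531). The other 3 comparisons did not call it (adjusted p from 0.255 to 0.585). Its exons overlap those of Gm17276 on the other strand over 488 bases. Notch4, the receptor best known from endothelium, had 13 to 37 counts per library and was not called (adjusted p from 0.861 to 0.984).

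The make-up of the receptor transcripts followed from these levels. Notch1 gave 38.0% to 38.9% of the summed CPM per kb of Notch1 to Notch4 in the sh-Empty libraries and 39.0% to 40.6% with JMJD1A(WT). In JMJD1A-KD cells it gave 30.1% to 31.4%, with LacZ 31.3% to 32.4% and with JMJD1A(H1122A) 30.7% to 32.0%. The ratio of Notch2 to Notch1 per kb was 1.49 to 1.53 in sh-Empty libraries and 1.38 to 1.49 with JMJD1A(WT), and it was 2.02 to 2.21 in the 9 libraries of the other 3 groups. LacZ replicate 1, which was high for both receptors, had a ratio of 2.09, beside 2.02 and 2.05 in the other LacZ libraries. The sum over the receptors was 25.3 to 26.7 CPM per kb in sh-Empty cells, 26.9 to 29.0 in JMJD1A-KD cells, 25.1 to 29.4 with LacZ, 27.2 to 29.9 with JMJD1A(WT) and 27.7 to 31.5 with JMJD1A(H1122A), and groups of the rescue set overlapped. Since Notch1 enters these shares, they are a description and were not tested.

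**Figure D3:**
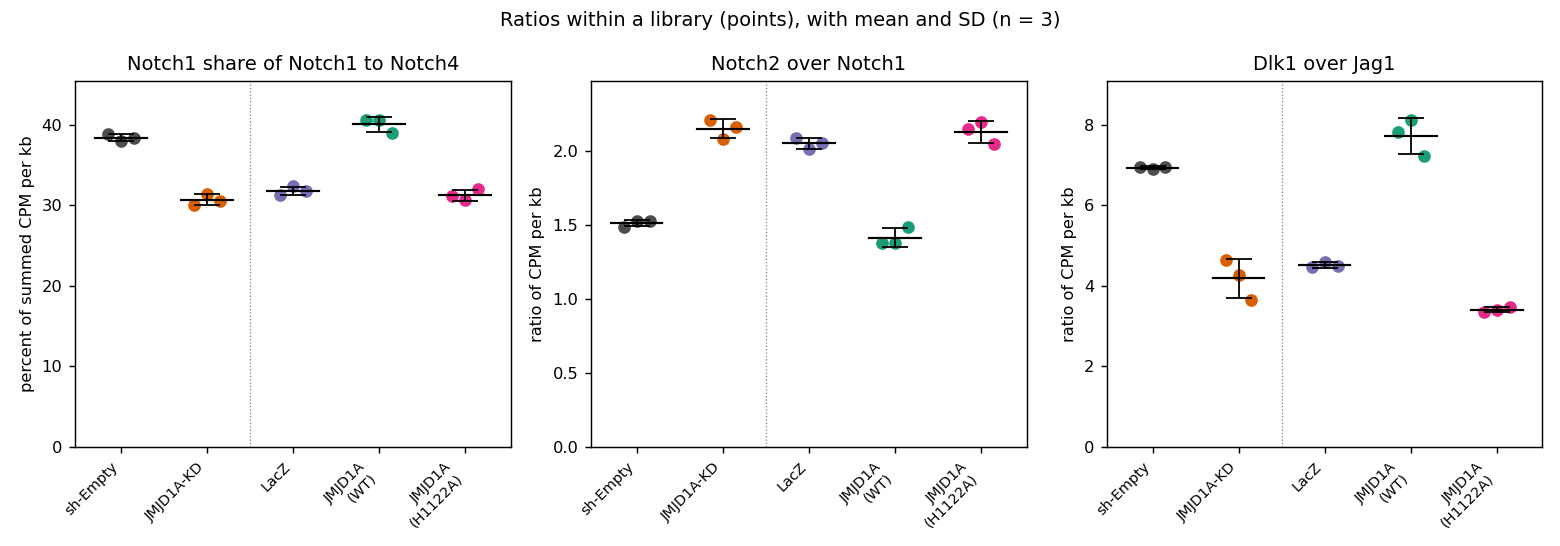
Share of Notch1 in the summed CPM per kb of Notch1 to Notch4, ratio of Notch2 to Notch1 and ratio of Dlk1 to Jag1 (both per kb) in each library (points, linear axes from 0), with mean and SD (n = 3). The sh-Empty and JMJD1A(WT) libraries stand apart from the other 9 in each panel, with a Notch1 share of 38.0% or more against 32.4% or less.

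Jag1, the canonical ligand with the most reads here, was not called in the knockdown set and was lowest with JMJD1A(WT). It lies on chromosome 2 (136907192 to 136942380, minus strand, mm9). Its levels were 129.5, 123 and 122.5 CPM in sh-Empty cells and 116, 124 and 131 CPM in JMJD1A-KD cells, which overlapped, and the difference of -0.02 ± 0.05 was not called (edgeR adjusted p = 0.814). They were 132, 124 and 128 CPM with LacZ, 101, 97.0 and 105 CPM with JMJD1A(WT), and 116, 115 and 121 CPM with JMJD1A(H1122A). All JMJD1A(WT) libraries lay below every library of the other groups, while each other neighbouring pair in the order LacZ, sh-Empty, JMJD1A-KD and JMJD1A(H1122A) overlapped. The log2 fold change was -0.33 ± 0.05 against LacZ (adjusted p = 1.52e-06). JMJD1A(H1122A) was 0.21 ± 0.05 above JMJD1A(WT) (adjusted p = 0.00119), and its difference from LacZ of -0.12 ± 0.05 was not called (adjusted p = 0.123). The ratio of Dlk1 to Jag1 per kb was 6.89 to 6.96 in sh-Empty libraries, 3.65 to 4.63 in JMJD1A-KD, 4.48 to 4.60 with LacZ, 7.23 to 8.11 with JMJD1A(WT) and 3.36 to 3.48 with JMJD1A(H1122A).

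The other ligands of the canonical group were scarce. Jag2 had 7 to 34 counts per library and was not called in any comparison (adjusted p from 0.423 to 0.968). Together with Notch4 this makes 2 of 5 listed ligands and receptor tested and none called, with none at an unadjusted p under 0.05 and none called by DESeq2. Over all genes, edgeR called 9.24% to 46.2% in the 4 comparisons. Dll1, Dll3 and Dll4, the Delta-like ligands, had at most 4, 3 and 8 counts in a library. Among other proteins known to bind Notch receptors, Egfl7 was lower in JMJD1A-KD cells (1.48 against 2.61 CPM, -0.82 ± 0.33, adjusted p = 0.0399). That call was lost with DESeq2 (adjusted p = 0.08) and without sh-Empty replicate 1 or 2 or JMJD1A-KD replicate 3. Egfl7 had 11 to 71 counts per library and shares 64 exon bases with Agpat2 on the other strand. Mfap5, a microfibril protein reported to bind Jagged and Notch, had 20, 25 and 36 counts with JMJD1A(WT), 4 to 10 with LacZ and 4 to 8 with JMJD1A(H1122A). It passed the filter only through the JMJD1A(WT) libraries, where it is highest, so its differences from JMJD1A(WT) are given without a test. Its means were 1.62 CPM with JMJD1A(WT), 0.535 CPM with LacZ and 0.459 CPM with JMJD1A(H1122A). In the knockdown set Mfap5 had 3 to 14 counts and fell below the filter. Mfap2 was tested and not called (adjusted p from 0.0677 to 0.785), and Dner, Cntn1 and Ccn3 fell below the filter. None of the 3 tested here was called in JMJD1A(H1122A) against LacZ by edgeR or DESeq2, with 0 at an unadjusted p under 0.05. Over all genes, edgeR called 9.24% in that comparison.

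Rbpj, the DNA-binding protein through which the receptors act, was called in no comparison. It lies on chromosome 5 (53947018 to 54048684, plus strand, mm9), and its level was 24.0, 22.7 and 21.0 CPM in sh-Empty cells and 24.7, 23.1 and 21.7 CPM in JMJD1A-KD cells. It was 22.5, 24.8 and 22.5 CPM with LacZ, 22.5, 25.1 and 22.9 CPM with JMJD1A(WT), and 20.4, 26.9 and 21.2 CPM with JMJD1A(H1122A). All groups overlapped, and the log2 fold changes lay between -0.03 and 0.04 with an SE of 0.09 to 0.10 (edgeR adjusted p from 0.74 to 0.961). At 246 to 588 counts per library, differences below the SE were not detectable, and differences above it could also go uncalled. Hes1 in JMJD1A-KD against sh-Empty (0.16 ± 0.08) and Notch2 in JMJD1A(H1122A) against LacZ (0.19 ± 0.07) were not called. The smallest difference of Rbpj that would be called was not tested.

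Hes1, the target gene of Notch with the most reads among the members, was called in no comparison. It lies on chromosome 16 (30064470 to 30067882, plus strand, mm9). It stood at 34.8, 37.0 and 38.2 CPM in sh-Empty cells and at 45.6, 41.4 and 36.7 CPM in JMJD1A-KD cells, where replicate 3 overlapped the sh-Empty libraries (0.16 ± 0.08, edgeR adjusted p = 0.102). Without that library the difference was 0.24 and was called (adjusted p = 0.0104), as it was with upper quartile scaling (0.20, adjusted p = 0.0471). With LacZ it stood at 33.2, 40.6 and 36.7 CPM, with JMJD1A(WT) at 34.7, 36.8 and 37.9 CPM and with JMJD1A(H1122A) at 38.8, 38.7 and 41.6 CPM. None of the rescue comparisons called it (adjusted p from 0.337 to 0.99), and the difference between JMJD1A(WT) and LacZ was 0.003 ± 0.08. Hes1 made up 98.4% or more of the summed CPM per kb of Hes1, Hey1 and Heyl in every library.

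Of 6 further target genes, Hes5, Hes7, Hey2 and Nrarp fell below the filter, with Hey2 and Nrarp at 0 in every library. Myc, a target of Notch in several tissues and of many other pathways, was lower in JMJD1A-KD than in sh-Empty cells, at 86.9, 85.5 and 84.5 CPM against 119, 136 and 132 CPM (-0.60 ± 0.05, adjusted p = 3.60e-10). It stood at 89.6, 75.1 and 91.8 CPM with LacZ, 107, 99.2 and 86.6 CPM with JMJD1A(WT) and 75.4, 79.2 and 80.2 CPM with JMJD1A(H1122A). The JMJD1A(H1122A) libraries lay below the JMJD1A(WT) libraries (-0.30 ± 0.07, adjusted p = 0.00424), and the differences from LacZ of 0.18 ± 0.07 for JMJD1A(WT) and -0.12 ± 0.08 for JMJD1A(H1122A) were not called (adjusted p = 0.147 and 0.382). Ccnd1, encoding cyclin D1, was not called (adjusted p from 0.059 to 0.737). Of the 2 genes tested in this list, 0 were called against LacZ in either rescue group by edgeR or DESeq2, with 1 at an unadjusted p under 0.05 for JMJD1A(WT) and 0 for JMJD1A(H1122A). Over all genes, edgeR called 9.5% and 9.24% in those comparisons.

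**Figure D4:**
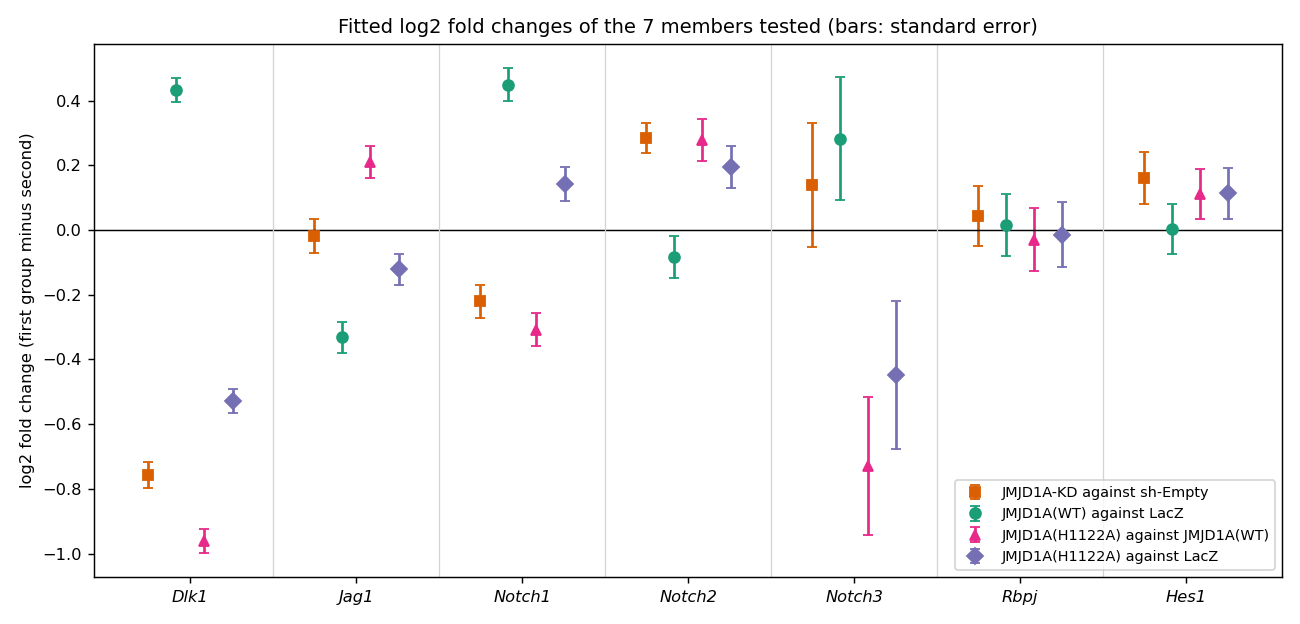
Fitted log2 fold changes (first group minus second) with standard errors for the 7 members tested, in 4 comparisons. Dlk1 and Notch1 have the same sign in 3 of them and opposite signs in JMJD1A(H1122A) against LacZ (-0.53 and 0.14), and the 4 values of Rbpj lie between -0.03 and 0.04.

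Counted over the 7 members tested, JMJD1A-KD against sh-Empty called 2 lower (Dlk1 and Notch1) and 1 higher (Notch2), where 23.9% of all 12272 genes tested were called lower, 22.3% higher and 46.2% in either direction. JMJD1A(WT) against LacZ called 2 higher (Dlk1 and Notch1) and 1 lower (Jag1), where 4.98% of 12557 genes were called higher, 4.52% lower and 9.5% in either direction. JMJD1A(H1122A) against JMJD1A(WT) called 3 lower (Dlk1, Notch1 and Notch3) and 2 higher (Notch2 and Jag1), beside 11.7% lower, 12.1% higher and 23.8% in either direction. JMJD1A(H1122A) against LacZ called Dlk1 lower, beside 4.46% of all genes lower, 4.78% higher and 9.24% in either direction. The groups compared did not overlap for 3, 3, 6 and 2 of the 7 members in the 4 comparisons. Over all genes tested this held for 6498 of 12272 in the first, and for 2894, 4642 and 3147 of 12557 in the others. Since Dlk1 and Notch1 were selected on the first 3 comparisons, nothing is read from these shares. The median log2 fold change of the 7 members was 0.04, 0.02, -0.03 and -0.01 in the 4 comparisons, and that of all genes tested was between -0.0032 and 0.00052.

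Enzymes that modify and cut the receptor were called in both directions. Psen2 is left out of their counts for the reason given for Dlk1. In JMJD1A-KD against sh-Empty cells, 3 of the other 13 genes tested were lower and 2 higher, beside 23.9% and 22.3% of all genes. The lower genes were Rfng, a fringe glycosyltransferase (29.5 against 41.3 CPM, -0.50 ± 0.08, adjusted p = 1.51e-05), Ncstn, which is nicastrin of gamma-secretase (-0.16 ± 0.05, adjusted p = 0.0192), and Furin, which cleaves the receptor in the Golgi (-0.12 ± 0.05, adjusted p = 0.0294). The calls of Ncstn and Furin were lost with DESeq2, with upper quartile scaling and without sh-Empty replicate 1 or 3, and that of Furin also without JMJD1A-KD replicate 3. Psen2, a catalytic subunit of gamma-secretase, is on the selected list of the study and is given without a test, with log2 fold changes of -0.43 ± 0.10 in JMJD1A-KD against sh-Empty, 0.35 ± 0.09 in JMJD1A(WT) against LacZ and -0.41 ± 0.09 in JMJD1A(H1122A) against JMJD1A(WT).

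Adam10, the protease that makes the ligand-dependent cut in Notch receptors, had the opposite signs to Dlk1 in all 4 comparisons. It stood at 266, 283 and 272 CPM in sh-Empty cells and 310.5, 318 and 312 CPM in JMJD1A-KD cells (0.19 ± 0.04, edgeR adjusted p = 0.000232). With LacZ it stood at 332, 333 and 329 CPM, with JMJD1A(WT) at 296, 289 and 283 CPM (-0.19 ± 0.04 against LacZ, adjusted p = 0.000404), and with JMJD1A(H1122A) at 357, 375 and 342 CPM (0.31 ± 0.04 against JMJD1A(WT), adjusted p = 2.26e-08). The groups did not overlap within either set. Against LacZ the JMJD1A(H1122A) value of 0.12 ± 0.04 had an adjusted p of 0.0473, and this call was lost with other scalings and DESeq2 (adjusted p from 0.0506 to 0.0544) and when any one of LacZ replicates 1, 2 and 3 or JMJD1A(H1122A) replicates 1 and 2 was left out (adjusted p from 0.0734 to 0.277).

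In the rescue set, 12 genes of this group other than Psen2 were tested. Adam10 was the 1 gene called in JMJD1A(WT) against LacZ, beside 9.5% of all genes. In JMJD1A(H1122A) against JMJD1A(WT), Furin and Ncstn were higher by 0.25 ± 0.04 (adjusted p = 3.75e-06) and 0.19 ± 0.05 (adjusted p = 0.00346), which with Adam10 makes 3 higher and 0 lower, beside 12.1% and 11.7% of all genes. Both were also higher than with LacZ, by 0.15 ± 0.04 (adjusted p = 0.0113) and 0.17 ± 0.05 (adjusted p = 0.0264). Those calls against LacZ were lost without LacZ replicate 2 or JMJD1A(H1122A) replicate 3, and that of Ncstn also without LacZ replicate 3 or JMJD1A(H1122A) replicate 1 or 2.

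All 19 nuclear cofactors of RBPJ in the list were tested, and in the knockdown comparison 5 were called lower and 5 higher, beside 23.9% lower and 22.3% higher over all genes tested. Higher were, among others, the coactivators Maml2 (0.57 ± 0.10, adjusted p = 4.52e-05) and Maml1 (0.29 ± 0.06, adjusted p = 8.26e-05), and Ep300, an acetyltransferase (0.16 ± 0.05, adjusted p = 0.0144), which lost its call without JMJD1A-KD replicate 3 (adjusted p = 0.0806). Lower were the deacetylase Hdac2 (-0.37 ± 0.05, adjusted p = 3.16e-07), the acetyltransferases Kat2b (-0.29 ± 0.06, adjusted p = 0.00014) and Kat2a (-0.22 ± 0.06, adjusted p = 0.00199), and the corepressor Cir1 (-0.45 ± 0.12, adjusted p = 0.00178). In JMJD1A(H1122A) against JMJD1A(WT), Maml2 was the 1 gene called, beside 23.8% of all genes (0.28 ± 0.10, adjusted p = 0.0306), a call lost with DESeq2 and without JMJD1A(H1122A) replicate 1 or 2 or JMJD1A(WT) replicate 2 or 3. None of the 19 was called in JMJD1A(WT) or JMJD1A(H1122A) against LacZ, beside 9.5% and 9.24% of all genes. None had an unadjusted p under 0.05 in edgeR there, and none was called by DESeq2.

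Of 11 genes of ubiquitination and trafficking tested, 6 were called higher and 2 lower in JMJD1A-KD cells, beside 22.3% higher and 23.9% lower over all genes. In JMJD1A(H1122A) against JMJD1A(WT) 3 were called higher and 1 lower, beside 12.1% and 11.7%. Of the 6 higher calls in JMJD1A-KD cells, those of Dtx3l, Dtx4, Numbl and Aak1 were each lost when 1 library was left out. Dtx3, a Deltex ubiquitin ligase, was higher in JMJD1A-KD than in sh-Empty cells (72.9 against 52.3 CPM, 0.48 ± 0.07, adjusted p = 1.60e-06). With JMJD1A(H1122A) it exceeded JMJD1A(WT) (0.41 ± 0.07, adjusted p = 4.44e-06) and LacZ (0.38 ± 0.07, adjusted p = 7.18e-05). Mib2, a ligase that acts on Notch ligands, was higher in JMJD1A-KD cells (0.50 ± 0.08, adjusted p = 1.54e-05), as was Dtx3l (0.43 ± 0.12, adjusted p = 0.00454, lost without sh-Empty replicate 3), while Dtx2 was lower (-0.36 ± 0.10, adjusted p = 0.00252) and Itch was lower (-0.16 ± 0.06, adjusted p = 0.0184) with a call that was lost with DESeq2 and without sh-Empty replicate 2 or 3 or JMJD1A-KD replicate 1. Numbl, related to the Notch inhibitor Numb, lay 0.28 ± 0.07 higher in JMJD1A(H1122A) against JMJD1A(WT) (adjusted p = 0.00205). Fbxw7, a ligase that acts on the intracellular domain of Notch, was 0.27 ± 0.08 higher in the same comparison (adjusted p = 0.0114), a call lost without JMJD1A(H1122A) replicate 1 or JMJD1A(WT) replicate 3. Dtx4 was called higher in JMJD1A-KD cells (0.40 ± 0.13, adjusted p = 0.0114, lost without sh-Empty replicate 3 or JMJD1A-KD replicate 2). It was the 1 gene of this list called in JMJD1A(WT) against LacZ, beside 9.5% of all genes (0.31 ± 0.10, adjusted p = 0.0358, lost with DESeq2 and without LacZ replicate 1 or 3 or JMJD1A(WT) replicate 1 or 2). Dtx4 was lower in JMJD1A(H1122A) against JMJD1A(WT) (-0.45 ± 0.10, adjusted p = 0.00082).

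**Figure D5:**
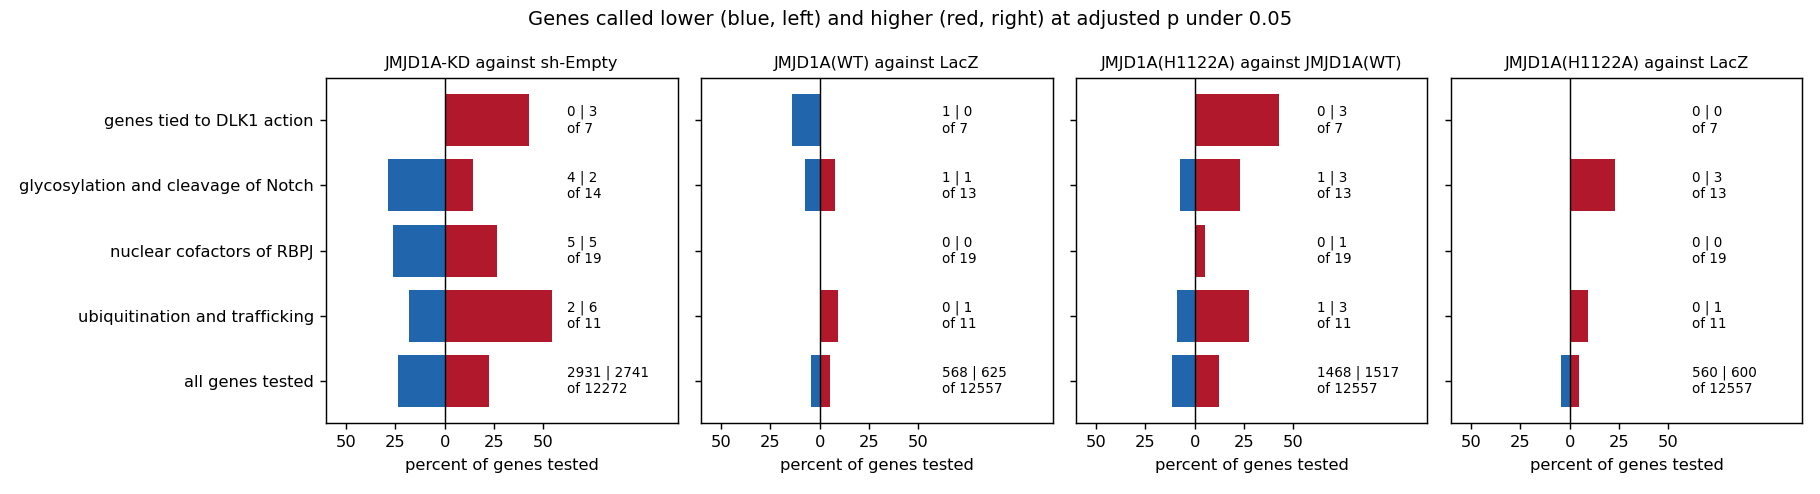
Percent of the genes tested in 4 Notch and DLK1 lists, and of all genes tested, that were called lower (to the left) or higher (to the right) at an adjusted p under 0.05, with the counts lower and higher beside each bar (Psen2 is counted among the cleavage genes). The 19 cofactors of RBPJ have 5 calls each way in the knockdown comparison and 1 call in all 3 rescue comparisons.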

How the data were processed

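Polyadenylated RNA of 15 libraries was sequenced on day 2 of differentiation. Per the submitters' processing notes and the study's methods, the tools were fastp, HISAT2 and featureCounts with the mm9 genome. The values deposited by the authors are raw read counts per gene (Entrez numbers), not normalized, and whether counting used strand is not given in the sources used here, so genes that overlap on opposite strands cannot be separated. Besides the overlaps given above, such exon overlaps affect, among the called pathway genes named here, Cir1 (371 bases), Dtx3l (458), Fbxw7 (135), Fn1 (292) and Ncstn (195). Called genes that are counted but not named can be affected too. Of 26301 gene rows, 24191 had a symbol.

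The 10 members, the pathway lists and the tests were chosen with earlier results of these data known. Named genes were the members and Kdm3a, every gene of a list of 7 or fewer, up to 4 called genes per comparison and direction of the longer lists by smallest p, and the 5 genes most like Dlk1. Results of some list genes are not reported here, and the counts of each list include them. Dlk1, Notch1 and Psen2 are on a gene list that the study drew from these libraries, and were described without a test in the 3 comparisons behind it.

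Counts were tested with the quasi-likelihood test of edgeR 4.0.16 (R 4.3.3, limma 3.58.1, statmod 1.5.0) after TMM scaling and filterByExpr with a minimum count of 10, with Benjamini-Hochberg adjustment over all genes tested. Genes were called at an adjusted p under 0.05. The 6 libraries of the knockdown set and the 9 of the rescue set were fitted apart. The scripts were tested on simulated data. CPM per kb used the exon union of each gene in an mm9 annotation. Alternatives were RLE and upper quartile scaling, DESeq2 1.42.0, other filters, 1 fit of all libraries, fits of only the groups compared, the legacy method, thinning to the smallest total, a replicate block, a threshold of 0.01 and leaving out each library. Replicates differed by more than counting noise (chi-square per degree of freedom 2.07 to 5.44), so no library was a duplicate. Same-numbered libraries of different groups deviated together weakly at most (r from -0.084 to 0.098), so numbers were not used as pairs. Total counts were 11437058 to 25523148 per library.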

Additional observations from a re-analysis of the deposited data

How the results depend on the processing

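Across other settings, 286 of 301 values of the 7 members tested stayed the same (7 reversed, 8 became called). With 1 library left out, 148 of 168 did so (15 reversed, 4 became called, 1 lost its call). Staying the same meant keeping the direction and the side of the threshold. For Dlk1 and Notch1 in the 3 comparisons given without a test, the threshold was not checked. There it meant that the fold change moved by less than the SD of log2 CPM within groups. Rbpj and Hes1, with differences near 0, changed sign most. Jag1 in JMJD1A-KD against sh-Empty was 0.0174 with upper quartile scaling and -0.0581 to 0.0276 without 1 library. Hes1 in JMJD1A(WT) against LacZ was -0.0045 with upper quartile scaling, -0.0031 with DESeq2, -0.0011 without a filter, -0.0016 with the legacy method, -0.0505 after thinning, -0.0028 with the replicate block and -0.0705 to 0.0791 without 1 library. Without 1 library Rbpj ranged from -0.0141 to 0.0933, from -0.0227 to 0.0633, from -0.168 to 0.0465 and from -0.153 to 0.0618 in the 4 comparisons in the order of the report. The genes called at an adjusted p under 0.01 numbered 733 in JMJD1A(WT) against LacZ (1193 at 0.05) and 576 in JMJD1A(H1122A) against LacZ (1160 at 0.05). Without 1 library the latter ranged from 674 (without JMJD1A(H1122A) replicate 1) to 1046, with 764 without LacZ replicate 3. The other ranges were 4852 to 5588 for JMJD1A-KD against sh-Empty, 861 to 1133 for JMJD1A(WT) against LacZ and 2334 to 2792 for JMJD1A(H1122A) against JMJD1A(WT). Replicate numbers were not used as pairs. In the rescue set r of same-numbered libraries ran from -0.026 to 0.098, and a weak shared effect was not tested. With the replicate block the 4 comparisons called 5425, 1393, 3283 and 1413 genes, beside 5672, 1193, 2985 and 1160 without it. With the block, Notch1 (adjusted p = 0.0318) and Notch2 (adjusted p = 0.00351) were called in JMJD1A(H1122A) against LacZ. In that comparison Notch2 was also called without a filter (adjusted p = 0.000995), with all libraries in 1 fit (0.0292), with only the 2 groups (0.044) and after thinning (0.0319), and the cause was not tested. Of 51 calls of list genes, 30 were kept in every setting at the same threshold, with Psen2 judged by its fold change as described for Dlk1. Counts of 34 to 135 limit what can be said of Notch3, and the 3 untested members cannot be compared at this depth.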
